A study of Bos taurus with 6 samples.

Results

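The genes described here carry retinol, turn it into retinoic acid or respond to retinoic acid, and they were measured in intramuscular fat (IMF) of castrated and intact male Qinchuan cattle, a Chinese beef breed. The set consisted of RBP4, TTR, CRABP1, CRABP2, ALDH1A1, ALDH1A2, RARA, RARB and RARRES2, and the rows were taken from the mRNA count data by gene symbol. Of these 9 genes, 7 matched a row among the 25444 genes, while ALDH1A2 and RARB were not analysed here. All 7 had at least 10 counts over both libraries, the minimum used for every comparison, as did 14540 genes in all.

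All animals were slaughtered at 24 months of age, and the IMF was dissected from the sternomandibularis, a neck muscle. The castrated group (CM), called steers below, had been castrated surgically at 6 months, and the intact group (IM), called bulls, kept their testes. According to the methods the animals were sons of 1 sire and received the same diet. Equal amounts of RNA from the animals of a group were pooled into 1 mRNA library, from 6 animals by the design text and 3 by the sample labels.

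Retinol circulates bound to retinol-binding protein, which itself travels in a complex with transthyretin. Inside cells, retinol is oxidized to retinal by short-chain dehydrogenases, and retinal is oxidized irreversibly to retinoic acid by the ALDH1A enzymes. Retinoic acid is bound in the cytosol by the CRABP proteins and acts through nuclear retinoic acid receptors that pair with retinoid X receptors. Adipose tissue stores retinol, releases retinol-binding protein as an adipokine and is a target of retinoic acid, which limits the differentiation of preadipocytes.

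Raw reads per gene, as deposited, summed to 12677375 in steers and 9868415 in bulls. Median-of-ratios size factors of 1.04 and 0.959 put the libraries on 1 scale, and levels are given as scaled CPM, the counts after that scaling relative to the common library size. The log2 ratio (log2 fold change) is always steers over bulls, and where a gene is said to lie at a value, that value is its log2 ratio. With 1 library per group there was no replicate, so every difference below is between these 2 pooled libraries, and no test of castration was possible. Intervals are 95% Clopper-Pearson intervals of the read counts and cover counting error only. In pooled bulk tissue, fewer cells of a type and less RNA per cell cannot be told apart. Transcript lengths were not used, so shares of reads and read ratios between genes also reflect gene length, and only their differences between the libraries are compared.

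Of the 7 genes, TTR and CRABP2 were those with higher counts in steers beyond 2-fold, and none was lower beyond 2-fold. TTR was 14.2-fold and CRABP2 2.58-fold higher in steers, whereas RBP4 was 1.28-fold higher. ALDH1A1, RARA, RARRES2 and CRABP1 were 1.28-fold to 1.60-fold higher in bulls. Thus 2 of 7 members were past 2-fold upwards, compared with 6.73% of all genes tested, and 0 of 7 downwards, compared with 11.5%. The background depends on depth, and it was also taken among the 7379 genes with at least 292 counts, the lowest sum of any member. In that range 2.95% of the genes were past 2-fold upwards and 4.89% downwards, and among genes with at least 50 counts the shares were 3.89% and 8.22%. Tests were counted only together with the 2-fold rule, so genes within 2-fold were not called whatever their test result. Both TTR and CRABP2 were past 2-fold and passed an exact binomial test of the libraries. The same held for 5.45% of all genes upwards and 9.94% downwards. Under an assumed biological coefficient of variation of 0.2 in edgeR's exact test both were called, with a background of 2.74% upwards and 5.63% downwards. Under 0.4 only TTR of the 7 was called, with a background of 0.365% and 0.688%. Scaling by total counts left the 2 members past 2-fold, with a background of 4.85% upwards and 15.3% downwards. The median log2 ratio of the 7 members was -0.36, compared with 0.01 over all genes tested, and 3 of the 7 lay above 0, as did 50.9% of all genes. The whole counting interval lay above 0 for RBP4, TTR and CRABP2 and below 0 for the other 4, where 27.4% and 25.1% of all genes had such intervals. These 2 shares include genes with as few as 10 counts. Intervals narrow as counts rise, so the shares are not matched to the depth of the members.

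**Figure D1:**
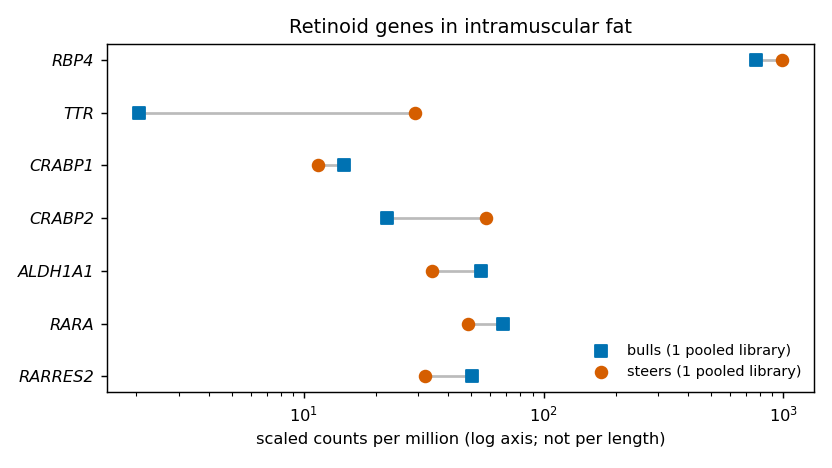
Scaled CPM (scaled counts over library size) of the 7 retinoid genes on a log axis, with circles for the pooled library of steers and squares for that of bulls. TTR is the gene with the widest gap, 29.1 against 2.05, and the order of the symbols turns over for CRABP1, ALDH1A1, RARA and RARRES2.

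RBP4 encodes retinol-binding protein 4, the plasma carrier of retinol. It had 11553 counts in steers against 8283 in bulls, which is 990 and 773 scaled CPM. The gene was abundant in both pools, and its difference was small but above counting error, with a log2 ratio of 0.36 (0.32 to 0.40). RBP4 alone supplied 82.3% of the counts of the 7 members in steers and 78.5% in bulls. Scaling by total counts in place of size factors brought its log2 ratio to 0.12, while that scaling placed the median of all genes at -0.23.

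TTR encodes transthyretin, the partner of RBP4 in plasma and a carrier of thyroxine. It had 339 counts in steers against 22 in bulls, or 29.1 and 2.05 scaled CPM. Its log2 ratio was 3.82 (3.20 to 4.52), which corresponds to a fold of 14.2 (9.20 to 22.9). Of the 14540 genes tested, 149 had a higher fold change, and 109 of those had no count in bulls. The interval is wide because the library of bulls held few TTR reads, yet its lower bound lay far beyond 2-fold. Both plasma carriers were thus higher in steers, by unequal amounts. For each RBP4 read there were 0.0293 TTR reads in steers and 0.00266 in bulls. The quotient of these 2 ratios, in which library scaling and gene length cancel, was 11.0 (7.17 to 17.9).

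Liver is the main source of plasma RBP4 and TTR, and choroid plexus epithelium is another rich source of TTR. Markers of both were examined in the same libraries. Of 15 hepatocyte genes, 8 had no count in either library, among them APOA2, APOB, FGA and AHSG, where 0 counts allow up to 3. ALB, the defining liver transcript, had 0 counts in steers against 1 in bulls. The hepatocyte list summed to 409 counts in steers against 1195 in bulls, with HP, the acute-phase gene of haptoglobin, at 124 and 944. APOA1, of apolipoprotein A-I, had 201 and 176 counts, and FGG, of fibrinogen gamma, 41 and 42, so that both were present in the 2 pools. TF, the iron carrier transferrin, was the 1 tested gene of that list past 2-fold in the direction of TTR, with 39 and 10 counts. Of 6 choroid plexus genes, KL, CLIC6, OTX2 and KCNJ13 had no count in either library, and FOLR1 had 2 in steers and 3 in bulls. AQP1, a water channel that is also made by endothelium, supplied nearly all counts of that list, with 14000 in steers and 5996 in bulls. The part of these markers in the TTR difference was not tested.

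Simple epithelial keratins were also higher in steers. KRT8 had 148 counts in steers against 7 in bulls, KRT19 102 and 19, and KRT18 77 and 20. They belong to a mesothelium list of 10 genes, of which 6 were tested, with 3 past 2-fold upwards and 1, MSLN, past 2-fold downwards with 2 and 10 counts. The list summed to 41.1 scaled CPM in steers and 30.1 in bulls, and LRRN4 had no count in either. EPCAM, an epithelial adhesion gene, had 8 and 0 counts. Whether these markers had a part in the TTR difference was not tested.

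The cellular retinoic acid-binding proteins differed from each other. CRABP2, which hands retinoic acid to its nuclear receptors, had 670 counts in steers against 239 in bulls, or 57.4 and 22.3 scaled CPM. Its log2 ratio was 1.36 (1.15 to 1.58), and 597 of the genes tested had a higher one. CRABP1, which is linked to the breakdown of retinoic acid, had 134 counts in steers against 158 in bulls, or 11.5 and 14.7 scaled CPM. CRABP1 was at -0.36 (-0.70 to -0.02), an interval that ends close to 0. There were 5.0 CRABP2 reads for each CRABP1 read in steers and 1.51 in bulls, a ratio 3.30 times higher in steers (2.49 to 4.39). How reads shared by these related genes were assigned is not given in the sources used here.

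**Figure D2:**
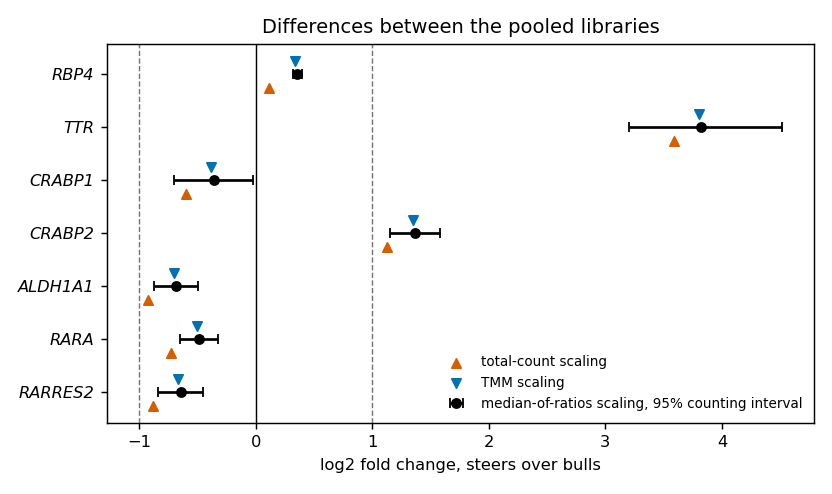
Log2 ratios of the 7 genes, steers over bulls, with 95% counting intervals for median-of-ratios scaling (circles) and the values with total-count (upward triangles) and TMM scaling (downward triangles). TTR and CRABP2 lie right of the dashed line at 2-fold under each of these scalings, and no gene changes side of 0.

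ALDH1A1, a cytosolic dehydrogenase that makes retinoic acid from retinal, had 399 counts in steers against 588 in bulls. Its level was 34.2 and 54.8 scaled CPM and its log2 ratio -0.68 (-0.87 to -0.50). This was the lowest value of the 7 genes, and 16.8% of all genes tested lay below it. ALDH1A1 was thus 1.60-fold higher in bulls (1.41 to 1.83), short of 2-fold. ALDH1A3, another enzyme of this family outside the 9 genes, had 240 counts in steers against 161 in bulls and lay at 0.45 (0.16 to 0.75), on the other side of 0.

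RARA encodes retinoic acid receptor alpha, a ligand-activated transcription factor. It had 565 counts in steers against 727 in bulls, 48.4 and 67.8 scaled CPM. With a log2 ratio of -0.49 (-0.65 to -0.33), RARA was 1.40-fold higher in bulls (1.25 to 1.57).

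RARRES2 encodes chemerin, a chemoattractant and adipokine first found as a gene induced by a synthetic retinoid. It had 374 counts in steers against 537 in bulls, 32.1 and 50.1 scaled CPM. With a log2 ratio of -0.64 (-0.84 to -0.45) it was 1.56-fold higher in bulls (1.37 to 1.79). The adipokine gene ADIPOQ, of adiponectin, was at -0.68 (-0.74 to -0.63), and the number of RARRES2 reads for each ADIPOQ read was 0.0829 in steers and 0.0807 in bulls. That ratio was 1.03 times as high in steers (0.892 to 1.18), whereas the ratio of RBP4 to ADIPOQ was 2.06 times as high (1.96 to 2.16). The latter value combines RBP4 at 0.36 with ADIPOQ at -0.68, so most of it comes from ADIPOQ. LEP, of the adipokine leptin, was at 0.02 (-0.10 to 0.14), or -0.22 with total-count scaling.

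All 21 pairs of the 7 genes were compared by such ratios, with the gene of the higher fold change as numerator, so that each ratio exceeds 1 by construction. The interval lay above 1 for 15 pairs and lay wholly above 2 for 10. The 6 pairs among CRABP1, ALDH1A1, RARA and RARRES2 had ratios of 1.03 to 1.25, and all of their intervals held 1. At this depth the differences of these 4 genes could not be told from each other, and the intervals allow ratios of up to 1.64. All 15 pairs that involved TTR, CRABP2 or RBP4 had an interval above 1.

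**Figure D3:**
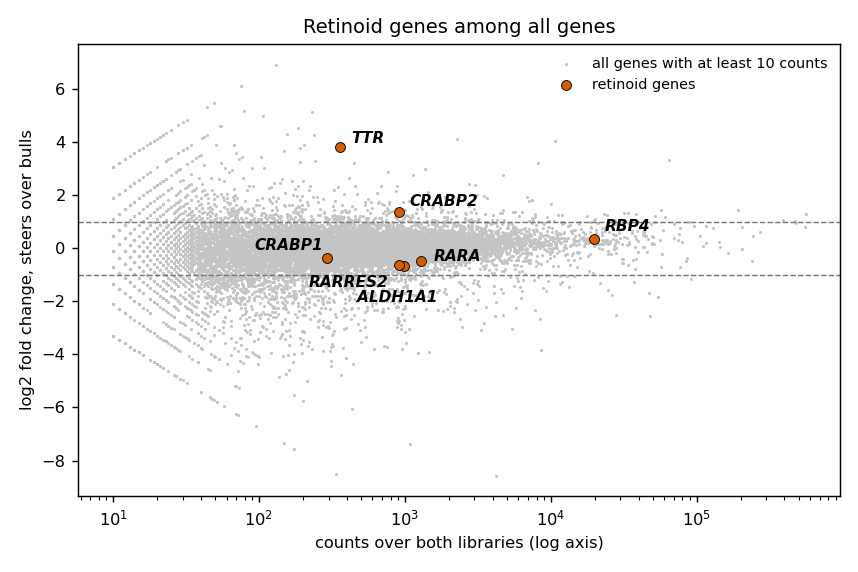
Log2 ratio against the counts over both libraries on a log axis, with grey points for genes with at least 10 counts and large points for the 7 retinoid genes. The 69 genes with no count in steers and the 109 with none in bulls have no finite value and are not drawn. TTR stands above most genes of its depth, CRABP2 lies just over the upper dashed line at 2-fold, and the other 5 lie between the lines.

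The protein-coding genes beside each member in the RefSeq cattle assembly ARS-UCD2.0 were also read out, taking the nearest 2 on each side that had a row. TTR lies among B4GALT6, TRAPPC8, DSG2 and DSG3. B4GALT6 was at -0.52 (-1.17 to 0.12) and TRAPPC8 at 0.18 (-0.07 to 0.43), while DSG2 had 1 and 2 counts and DSG3 none. CRABP2 lies among ISG20L2, METTL25B, NES and BCAN. ISG20L2 was at 0.24 (0.06 to 0.41) and NES at 0.00 (-0.28 to 0.28). METTL25B was read under its older symbol RRNAD1. None of the tested neighbours of TTR or CRABP2 was past 2-fold. Around all 7 genes, 20 of 28 neighbours were tested, of which 0 were past 2-fold upwards and 4 downwards. Over all genes tested the shares were 6.73% upwards and 11.5% downwards. The 4 were CEP55 with 0 and 13 counts, FRA10AC1 with 4 and 9, ZNF467 with 8 and 25, and TOP2A with 28 and 120. FFAR4, a fatty acid receptor gene beside RBP4 listed under its older symbol O3FAR1, had 129 counts in steers against 67 in bulls and lay at 0.82 (0.39 to 1.27).

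A list of 59 further genes of retinoid handling and signalling and of chemerin reception was set beside the members, of which 54 had a row and 37 were tested. Past 2-fold were 1 upwards (2.70%) and 8 downwards (21.6%), with a median log2 ratio of -0.22. The corresponding background is 6.73% upwards and 11.5% downwards. With total-count scaling the list had 1 upwards and 10 downwards, against a background of 4.85% and 15.3%. When the whole counting interval had to pass 2-fold, 0 genes were left upwards and 5 downwards. No share of all genes was taken for that rule. An assumed coefficient of variation of 0.2 in edgeR's exact test also left 0 and 5, against a background of 2.74% upwards and 5.63% downwards. These 5 were DHRS9, CYP2S1, FABP5, CD38 and CCRL2 under both rules. With a coefficient of 0.4 CD38 alone was left, against a background of 0.365% upwards and 0.688% downwards. The gene beyond 2-fold upwards was STRA6, for retinol uptake, and those downwards were spread over enzymes, carriers, target genes and receptors.

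Of 5 genes for retinol uptake and retinol binding in cells, STRA6 was the 1 with enough counts to be tested. STRA6, the membrane receptor for RBP4, had 20 and 3 counts and lay at 2.61 (0.86 to 5.01). It was higher in steers on very few reads. RBP2 and LRP2 had no count, RBP5 had 2 and 1, and RBP7 had 1 and 0.

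For retinyl ester storage and release, 3 genes were tested and all were within 2-fold. LIPE, the hormone-sensitive lipase that also releases retinol from its esters, had 5234 counts in steers against 4890 in bulls and lay at -0.02 (-0.08 to 0.03). LRAT, the enzyme that esterifies retinol, had 23 counts in each library.

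Among 8 tested oxidoreductases, 6 were within 2-fold and 2 were lower in steers. DHRS3, which reduces retinal back to retinol and is itself induced by retinoic acid, had the most counts, 883 and 1035, and was at -0.35 (-0.48 to -0.22). DHRS4 had 367 counts in steers against 725 in bulls, which put it at -1.10 (-1.29 to -0.92). DHRS9 had 4 and 38 counts and was at -3.37 (-5.32 to -1.90). RDH11, RDH13 and RDH14 lay between -0.03 and 0.02, each with an interval that holds 0, and RDH11 was at -0.22 with total-count scaling. ADH1C, ADH4 and ADH6, alcohol dehydrogenases prominent in liver and gut, had no count in either library.

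For carotenoids, the uptake receptor SCARB1 had 431 counts in steers against 729 in bulls, which put it at -0.88 (-1.06 to -0.71). BCO2, which cleaves carotenoids off centre, was at -0.81 (-1.41 to -0.23) with 41 and 66 counts. BCO1, which cleaves beta-carotene into retinal, had no count under its older symbol BCMO1. Of the enzymes that clear retinoic acid, CYP26B1 had 264 and 255 counts and lay at -0.07 (-0.33 to 0.18), and CYP26A1 and CYP26C1 had none. CYP2S1 was at -3.51 (-6.65 to -1.48) on 2 counts in steers against 21 in bulls.

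**Figure D4:**
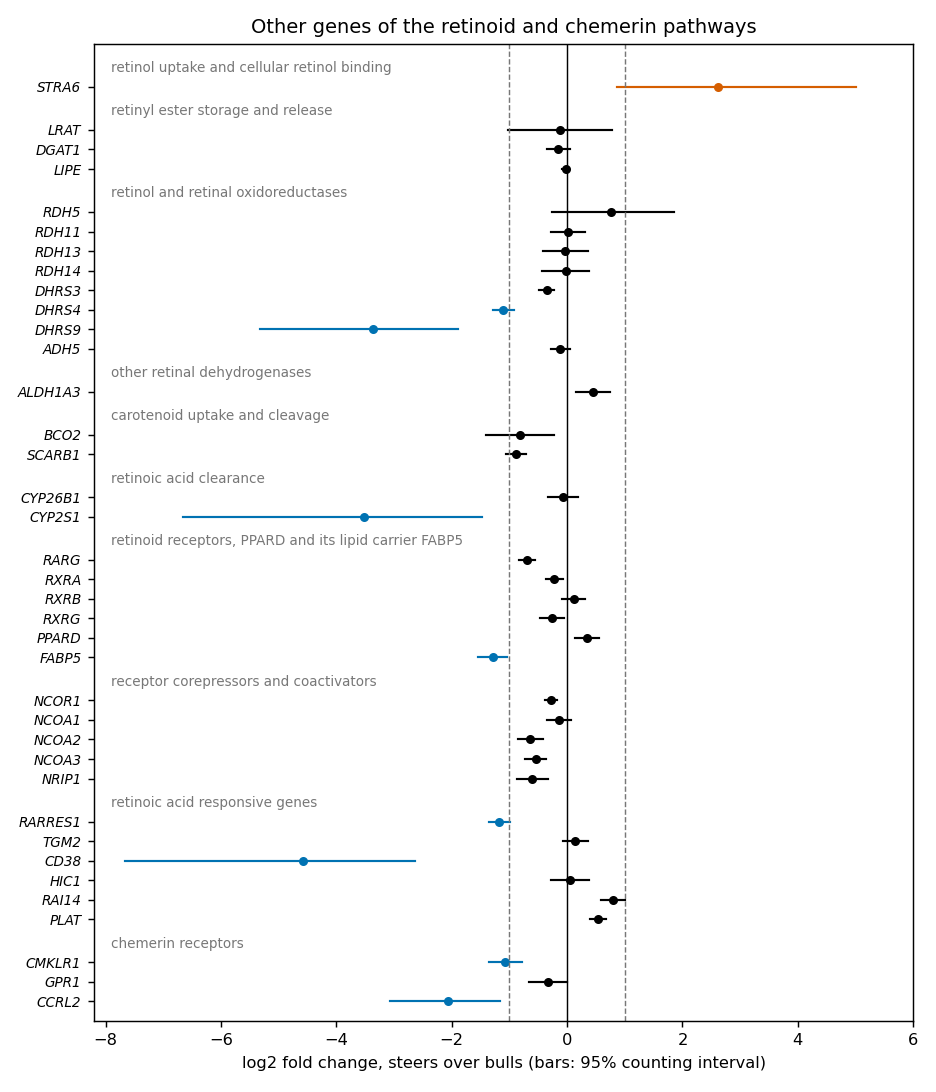
Log2 ratios of the 37 tested genes of the further list, grouped by role, with 95% counting intervals. STRA6 is drawn in orange as past 2-fold upwards, the 8 genes past 2-fold downwards in blue and the others in black, and most receptors and cofactors sit between the dashed lines at 2-fold.

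The nuclear receptors stayed within 2-fold. RARG, retinoic acid receptor gamma, had 744 counts in steers against 1107 in bulls and lay at -0.70 (-0.83 to -0.56). RARA and RARG thus both lay below 0. The retinoid X receptors were closer to 0, RXRA at -0.22 (-0.37 to -0.07), RXRB at 0.11 (-0.08 to 0.31), or -0.13 with total counts, and RXRG at -0.26 (-0.46 to -0.05). PPARD, a receptor that retinoic acid is reported to reach by way of the lipid carrier FABP5, was at 0.35 (0.14 to 0.56). FABP5 itself had 185 counts in steers against 415 in bulls, which put it at -1.29 (-1.55 to -1.03). CRABP2 and FABP5 thus differed in opposite directions, with 3.62 CRABP2 reads for each FABP5 read in steers and 0.576 in bulls, a ratio 6.28 times higher in steers (4.98 to 7.95). All 5 corepressors and coactivators were within 2-fold, from NCOA2 at -0.64 (-0.86 to -0.42) to NCOA1 at -0.14 (-0.34 to 0.06), and NCOR1, the corepressor with the most counts, was at -0.28 (-0.39 to -0.18).

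Genes known to respond to retinoic acid had no common direction. Of 6 tested, 2 were past 2-fold downwards and 4 were above 0, of which TGM2 and HIC1 were below 0 with total-count scaling, at -0.10 and -0.19. RARRES1 had 381 counts in steers against 790 in bulls and was 2.26-fold higher in bulls (1.99 to 2.56). CD38, an ectoenzyme of leukocytes that retinoic acid induces in myeloid cells, had 2 and 44 counts and was at -4.58 (-7.67 to -2.64). TGM2, tissue transglutaminase, was at 0.14 (-0.07 to 0.35), and PLAT, the tissue plasminogen activator, which had the most counts of this list, was at 0.54 (0.40 to 0.67).

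Of the 3 chemerin receptors, 2 were past 2-fold lower in steers, and chemerin itself was lower within 2-fold. CMKLR1, the signalling receptor, had 150 counts in steers against 289 in bulls, which put it at -1.07 (-1.36 to -0.78). CCRL2, which binds chemerin without signalling, had 13 and 50 counts and was at -2.07 (-3.07 to -1.16). GPR1 was at -0.33 (-0.66 to 0.00) with 142 and 164 counts.

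Markers of leukocytes were lower in steers. The 8 genes of the further list past 2-fold downwards were DHRS4, DHRS9, CYP2S1, FABP5, RARRES1, CD38, CMKLR1 and CCRL2. Which cells expressed these 8 genes was not measured. All 9 macrophage genes were below 0 and 7 were past 2-fold downwards, where 11.5% of all genes tested were. Their summed level was 2827 scaled CPM in steers and 7817 in bulls. CD74, which had the most counts of them, was at -1.84 (-1.86 to -1.81). All 8 T lymphocyte genes were past 2-fold downwards, 112 counts against 768 in sum, with CD3E at 35 and 253 counts. The part of these markers in the differences of the retinoid and chemerin genes was not tested.

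ADIPOQ and PLIN1, which define adipocytes, had 4499 counts or more in both pools, and the 7 adipocyte genes had a median log2 ratio of -0.02 and summed to 2605 scaled CPM in steers and 3105 in bulls. The list includes LIPE, described above, and was not uniform, with CIDEA at 998 and 136 counts and FABP4 at 3951 and 7574. CIDEC, the adipocyte gene with the most counts, was at 0.28 (0.24 to 0.33). Fibroblast and preadipocyte genes had a median of 0.55 and a summed level of 74145 scaled CPM in steers and 37613 in bulls, mostly collagen, with COL3A1 at 1.27 (1.26 to 1.28). Of the 9 tested, 3 lay below 0, namely PDGFRA at -0.48 (-0.57 to -0.40), CD34 at -0.19 (-0.26 to -0.12) and DPP4 at -0.48 (-1.38 to 0.39), and DLK1 had 0 and 5 counts. Endothelial genes had a median of -0.30 with 0 of 7 past 2-fold, PECAM1 among them at 0.16 (0.10 to 0.23), or -0.07 with total counts. Skeletal muscle transcripts were present in both pools, with ACTA1 at 13852 and 19910 counts and a list median of -0.57. That list was not uniform either, and of its 10 genes 4 lay above 0 and 6 below. MYH7 with 675 and 2906 counts and TNNT1 with 485 and 1801 were past 2-fold downwards. MYH1, with 247 and 102 counts, was past 2-fold upwards, but not with total-count scaling. The 5 tested Schwann cell genes had a median of 0.82, or 0.58 with total counts, led in counts by PMP22 at 0.59 (0.51 to 0.67). CDH19, which had too few counts to be tested, went the other way with 1 and 8. Of the keratinocyte and gland genes 3 of 7 were tested, and they differed in direction. DSP was at 0.59 (0.36 to 0.83) and CDH1 at 0.88 (-0.81 to 2.78). TP63 was past 2-fold downwards at -1.86 (-4.36 to 0.10), on 3 and 10 counts. KRT5 had 3 counts in each library, and KRT14 and KRT15 had none. PKHD1L1, the mesothelium list gene with the most counts, was at -0.96 (-1.26 to -0.65). CRABP2 and STRA6 were higher in steers, as were collagen and the keratins KRT8, KRT18 and KRT19. Other genes of the same marker lists were lower, among them PDGFRA, CD34, MSLN and PKHD1L1. With 1 log2 ratio per gene a shared direction cannot tie genes together, and the part of these markers in the retinoid genes was not tested.

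**Figure D5:**
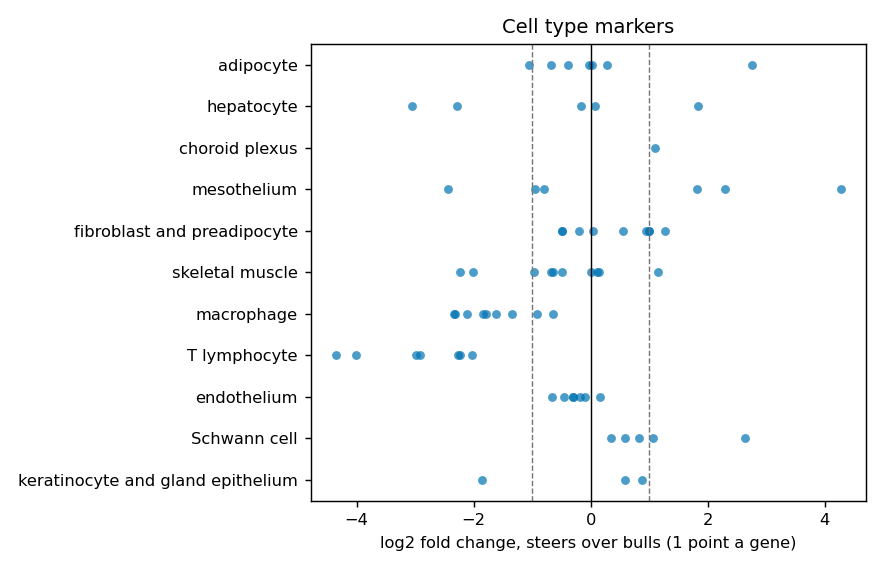
Log2 ratios of the tested markers of 11 cell types, 1 point a gene, with dashed lines at 2-fold. The macrophage and T lymphocyte points all lie left of 0, the endothelial points cluster near it, and the points right of 2 in the mesothelium row are KRT19 and KRT8. CD3G, with 0 counts in steers, has no finite value and is not drawn.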

How the data were processed

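Total RNA of IMF was pooled within groups, made into 1 Ion Proton library each and sequenced. The authors removed adaptors and low-quality reads and aligned the rest to a bovine genome with MapSplice. The program that counted reads and its use of strand are not given in the sources used here. The submitters' processing notes also list BWA, which the methods name for the small RNA reads, and GRCh37.p13, a human assembly whose role is not given in the sources used here. The authors deposited unnormalised counts for each gene, the unit used here. The miRNA counts were not used.

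Size factors followed the median-of-ratios method (numpy 2.4.6), and scaled CPM is the scaled count over the geometric mean of the library totals. Genes with at least 10 counts over both libraries were compared, and past 2-fold means an absolute log2 fold change over 1. Clopper-Pearson intervals at 95% and conditional odds ratios came from scipy 1.17.1. The paper's EBSeq was not used. The intervals and the exact binomial calls were tested on simulated data that held counting error only, with no spread between animals. That simulation therefore cannot show how the calls behave when animals differ, and edgeR's test was not part of it. Of 156 list entries 149 matched a row, 1 of them by an older symbol. Some genes of the further list are not reported here, and its counts and medians leave them out. RefSeq (ARS-UCD2.0) was used for older symbols and gene order only, since its build is not that of the files. No sequence is shown, as no file used here holds one for these genes.

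The members and lists were chosen with earlier results of these data known. Named are the members, all genes of the pathway lists past 2-fold, and the gene with the most counts of each list. Neighbours, member pairs, genes without counts and other genes named were chosen after their values were seen. The alternatives tried were other scalings (total counts, edgeR 4.0.16 TMM and upper quartile), added prior counts, other filters, an exact binomial test, and edgeR's exact test with an assumed biological coefficient of variation.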

Additional observations from a re-analysis of the deposited data

How the results depend on the processing

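All 7 members kept their direction under every scaling and prior count, and TTR and CRABP2 stayed past 2-fold throughout. They also passed an exact binomial test of the libraries and edgeR's exact test with an assumed biological coefficient of variation of 0.2. With 0.4, 1 member, TTR, was past 2-fold and passed. The median of the members ranged from -0.60 with total counts to -0.34 with upper-quartile scaling, and was -0.42 without TTR, a choice made after seeing the data. Of the further list, 1 gene, STRA6, was past 2-fold upwards, while 3 were with no filter, of which RBP7 and SDR16C5 rest on 1 read. None (0) was upwards with at least 50 counts, when the whole counting interval had to pass 2-fold, or with an assumed coefficient of 0.2 or 0.4. Downwards, 5 genes in place of 8 were past 2-fold with at least 50 counts, namely DHRS4, FABP5, RARRES1, CMKLR1 and CCRL2. The whole interval and a coefficient of 0.2 each left a different 5, namely DHRS9, CYP2S1, FABP5, CD38 and CCRL2. FABP5 and CCRL2 were in both sets, and with 0.4 only 1 gene, CD38, was left. A higher count minimum tests fewer genes by construction, and for the other settings the cause was not tested. Total-count scaling moved RBP4, CRABP2, ALDH1A1, RARA and RARRES2 beyond their counting intervals, with no change of direction. No paired analysis was possible because each mRNA group had 1 library. Pools without replicates leave the spread between animals unknown, and the low counts of TTR in bulls and of STRA6 in both pools limit their folds.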
